A study of Homo sapiens with 6 samples.

Results

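BEAS-2B cells that received TGF-β1 at 5 ng/mL for 48 h were compared with untreated BEAS-2B cells. The comparison used 2 of the 6 libraries of the series and all 25737 gene entries, and it was defined by cell line, dose and time without any expression value. BEAS-2B is 1 established line of human bronchial epithelial cells, immortalized with an adenovirus-SV40 hybrid virus. The labels give the genotype of all cells as WT. The treated cells received the cytokine in RPMI1640 medium with 1% fetal bovine serum, antibiotics and sodium pyruvate. Routine culture of both lines is described with 10% serum, without separating treated from untreated cells. The medium of the untreated cells during these 48 h is not given, so a difference in serum between the groups, if there was one, cannot be told apart from the treatment. The other libraries were BEAS-2B cells at 1 ng/mL and A549 lung carcinoma cells at 0, 1 and 5 ng/mL. Libraries were made with a QuantSeq kit, which reads the 3′ end of polyadenylated RNA, and the study asked which genes of respiratory epithelial cells change in a TGF-β1 model of pulmonary fibrosis.

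TGF-β1 is secreted in a latent complex, which is held in the matrix and opened by integrins and proteases. The released ligand joins type II and type I receptors, which phosphorylate SMAD proteins, and SMAD complexes then act on genes together with partners such as AP-1 factors. In airway epithelium the cytokine is known for epithelial-mesenchymal transition (EMT), for matrix production and for restraint of inflammation and growth.

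Each condition had 1 library, so no difference within BEAS-2B cells could be set against a spread between cultures, and no test between conditions was run. A model of dose over both cell lines, which would estimate an effect averaged over them, was not fitted. The control library held 4252712 counts and the treated library 4120624. The fold change (FC) was the ratio of counts after scaling with TMM factors, and brackets give its exact 95% Clopper-Pearson interval, which covers counting error only. The normalized data (ND) value was log2(normalized count + 1). Genes were called higher or lower, and are said to have risen or fallen, when both the FC reached 2 and the ND value reached 7 in either library. The study used limits of the same names, but the scale of its ND values is not described. The numbers of called genes depended strongly on this scale, as given below, so they are not comparable with the number the study reports. An ND value of 7 is a normalized count of 127, which stands for 113.9 counts in the control and 100.8 in the treated library. A gene that reached it only in the treated library could be called higher but not lower. The reverse held for a gene that reached it only in the control. Of 6735 entries at this minimum, 494 (7.33%) were called higher and 783 (11.6%) lower, together 19.0%. The counts of called members in each class below are to be read beside these shares. The median log2 FC of all 6735 was 0.03. An FC of at least 4 was reached by 119 genes upward and 175 downward, and an FC of at least 16 by 16 in each direction.

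**Figure D1:**
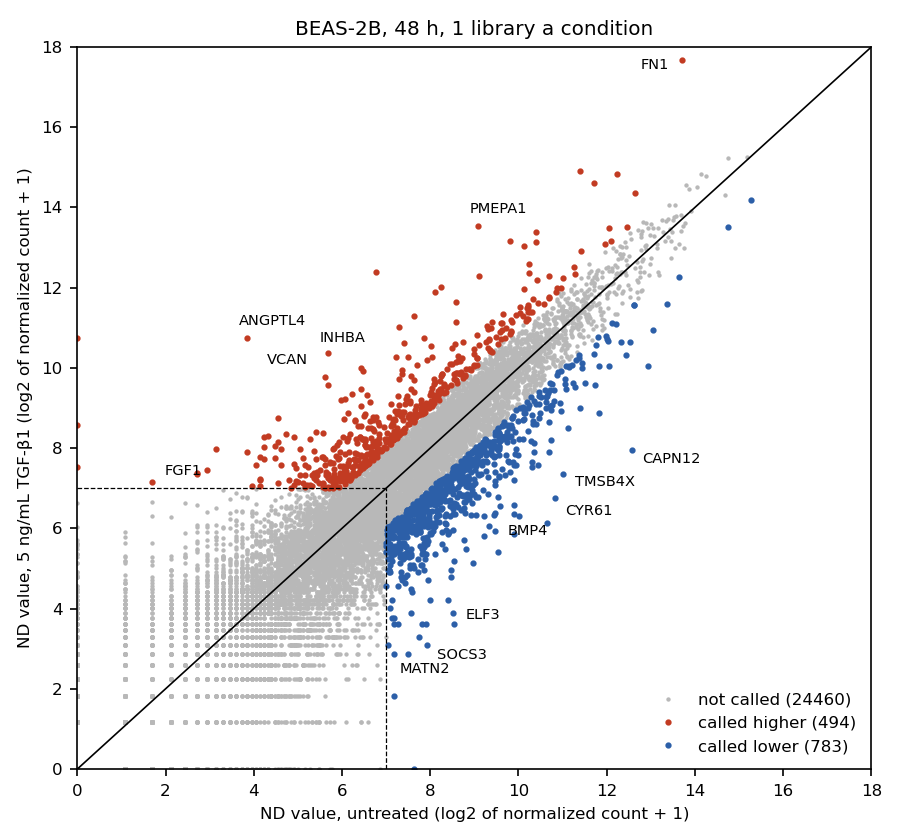
ND values of all 25737 entries in untreated BEAS-2B cells (horizontal axis) and with TGF-β1 at 5 ng/mL (vertical axis), 1 point an entry, with the line of equal values and the ND minimum of 7 dashed. The 494 entries called higher lie above the line and the 783 called lower below it, with INHBA, FGF1 and ANGPTL4 farthest above and MATN2, SOCS3 and CAPN12 far below among the labelled genes.

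The label of bronchial epithelial cells was checked against cell type markers. EPCAM, KRT5, TP63 and KRT14, which mark airway epithelium and its basal cells, were counted 0 times in both libraries, and CDH1 (E-cadherin) had 2 counts in each. Of the 8 airway epithelial markers only KRT8 and KRT18, the keratins of simple epithelia, reached the ND minimum. KRT8 had 372 counts in the control and 175 at 5 ng/mL, and KRT18 had 1418 and 806. Of 6 fibroblast or mesenchymal markers 3 reached it, with VIM at 1975 and 2535 counts, THY1 at 1160 and 1410 and PDGFRB at 118 and 160. The summed level of the airway epithelial list was 432.2 counts per 1000000 total counts (CPM) in the control and 243.2 at 5 ng/mL, and that of the mesenchymal list 765.9 and 997.7 CPM. The lists for ciliated, club, alveolar type 2, endothelial and leukocyte cells had no member at the minimum, and their summed levels lay between 0.0 and 5.643 CPM. KRT19 had 46 and 19 counts. Apart from these keratins, the defining markers of airway epithelium were thus at or near 0 also before treatment. In such bulk libraries fewer cells of a type and less RNA per cell cannot be told apart.

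The genes of the TGF-β pathway itself came first. Of its 12 ligand, receptor and latency genes at the minimum, 6 rose and 0 fell, and the median log2 FC was 0.96. The latent binding proteins LTBP1 and LTBP2, which anchor the cytokine in the matrix, rose. LTBP2 had 160 counts in the control and 976 at 5 ng/mL, an FC of 6.89 (5.82 to 8.19). LTBP1 went from 31 to 151 counts, 5.5-fold (3.72 to 8.38). TGFB1, the ligand, went from 57 to 246 counts, 4.87-fold (3.64 to 6.62). ITGAV, the integrin subunit that opens the latent complex, rose 4.03-fold (3.19 to 5.13), and FURIN, which cleaves the precursor, rose from 236 to 431 counts. Among the receptors neither direction was called, and TGFBR3 stood below the minimum at 97 and 13 counts. TGFBR1 had 222 and 280 counts, and TGFBR2 had 227 and 115, a log2 FC of -0.80. TGFB2, a second ligand, had 1626 and 1511 counts and was not called.

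Of 13 SMAD and feedback genes at the minimum, 6 rose and 0 fell, with a median of 0.52. PMEPA1, which holds SMAD proteins away from the receptor, had 489 counts in the control and 9453 at 5 ng/mL, an FC of 21.8 (19.9 to 24). The inhibitory SMAD7 went from 15 to 118 counts, 8.88-fold (5.17 to 16.4). The corepressors SKIL and SKI rose 3.58-fold (2.85 to 4.53) and 3.39-fold (3.08 to 3.74). SMURF2 and SMURF1, ubiquitin ligases for receptors and SMADs, also rose, from 165 to 366 and from 65 to 123 counts. The signal carriers were not called: SMAD3 had 1189 and 559 counts, a log2 FC of -0.91, SMAD2 had 474 and 330, and SMAD4 had 224 and 191. NKILA, a noncoding RNA on the opposite strand at PMEPA1, went from 7 to 198 counts. The sources used here do not state whether counting used the strand, and without it reads of overlapping genes cannot be told apart.

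The BMP and activin branch moved in both directions, with 7 of 15 members higher and 5 lower. INHBA, the subunit of activin A, had 45 counts in the control and 1054 at 5 ng/mL, an FC of 26.4 (19.6 to 36.5). GDF6 went from 20 to 224 counts, 12.7-fold (8 to 21.1). The BMP antagonist GREM1 rose 3.22-fold (2.49 to 4.2), and the receptor BMPR2 rose 3.12-fold (2.69 to 3.63). In the other direction BMP4 went from 634 to 48 counts, 11.7 times lower (8.71 to 16). The BMP-responsive inhibitors of basic helix-loop-helix factors fell with it. ID3 was 4.06 times lower (3.25 to 5.11), ID2 3.52 times lower (2.59 to 4.88), and ID1 went from 219 to 92 counts.

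Growth factors and angiogenic factors formed the class with the highest median, 1.49, and 11 of its 19 members at the minimum rose while 1 fell. The shares were 57.9% and 5.26%, beside 7.33% and 11.6% of all entries. FGF1 had 2 counts in the control and 113 at 5 ng/mL, an FC of 63.8 (17.3 to 533) with a wide interval. EDN1, the vasoconstrictor endothelin 1, went from 5 to 130 counts, 29.4-fold (12.3 to 91.9). Both FGF1 and EDN1 reached the minimum only in the treated library, so neither could have been called lower. Members of this kind can only add to the rises of the class. PDGFB rose 8.88-fold (6.86 to 11.7), PDGFA 5.44-fold (4.53 to 6.57) and PDGFC 2.81-fold (2.48 to 3.18). The PDGF chains are mitogens for mesenchymal cells. VEGFA, the main endothelial growth factor, rose from 168 to 701 counts, 4.71-fold (3.98 to 5.61), and its relative PGF 3.8-fold (2.6 to 5.67). The semaphorin SEMA7A rose 5.75-fold (4.57 to 7.31), and NRP2, a VEGF and semaphorin coreceptor, 3.42-fold (2.56 to 4.63). ADM, the vasodilator adrenomedullin, fell from 666 to 197 counts. ADM also belongs to the hypoxia list, in which EPAS1 fell 4.18 times (3.46 to 5.07) and HK2, a hexokinase, 3.45 times (2.55 to 4.72).

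Promoters of 8 of these 11 risen genes were matched in RefSeq, as windows from 250 bases before to 50 after the gene start. The E-box CAGGTG, read on both strands and known as a binding sequence of SNAI and ZEB factors, was present in 4 of the 8, those of EDN1, FGF1, PDGFA and PGF. It was also in 3 of 8 matched genes of cholesterol and fatty acid synthesis that fell, in 17.6% of matched genes called higher and in 18.9% of those called lower. It occurred in 20.6% of all 27305 promoters of the table and in 15.9% of those of genes at the ND minimum. The AP-1 sequence TGANTCA and the SMAD palindrome GTCTAGAC, present in 7.76% and 0.201% of all promoters, were found in 0 of the 8 and in 0 of 5 matched feedback genes that rose. Such matches describe letters and not binding. A second E-box of EDN1, which began 7 bases after the gene start, is not printed. For the pair with the largest FC 1 E-box each is shown, in capitals and on the strand of the gene (RefSeq, GRCh38.p14):
EDN1, chr6:12287892-12287921, plus strand: ctcgagaagggcCAGGTGtgggcggatggc
FGF1, chr5:142698110-142698139, minus strand: tcattgtcctttCACCTGgcagctgtccag

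Other signalling ligands rose as well. Of 8 Notch genes at the minimum 4 rose (50%) and 1 fell (12.5%), beside 7.33% and 11.6% of all entries (median 0.95). JAG1, a Notch ligand, had 56 counts in the control and 465 at 5 ng/mL, 9.38-fold (7.09 to 12.6). LFNG, which glycosylates Notch receptors, went from 16 to 206 counts, 14.5-fold (8.74 to 25.9). The Notch target HES1 went from 59 to 129 counts, while HEY1 had 0 and 1 counts. JAG1, LFNG and HES1 reached the minimum only in the treated library, so they could not have been called lower. NUMB, a Notch inhibitor, fell 3.65 times (2.71 to 5). Among 10 WNT genes 3 rose and 0 fell. WNT5A, a noncanonical ligand, rose 6.02-fold (3.97 to 9.45), and WNT5B 5.12-fold (4.01 to 6.59). HBEGF, an EGF receptor ligand, rose from 198 to 399 counts. IL11, a fibrogenic cytokine of the IL-6 family, rose from 343 to 2557 counts, 8.42-fold (7.52 to 9.45). IL6 itself had 5 and 4 counts, below the minimum.

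**Figure D2:**
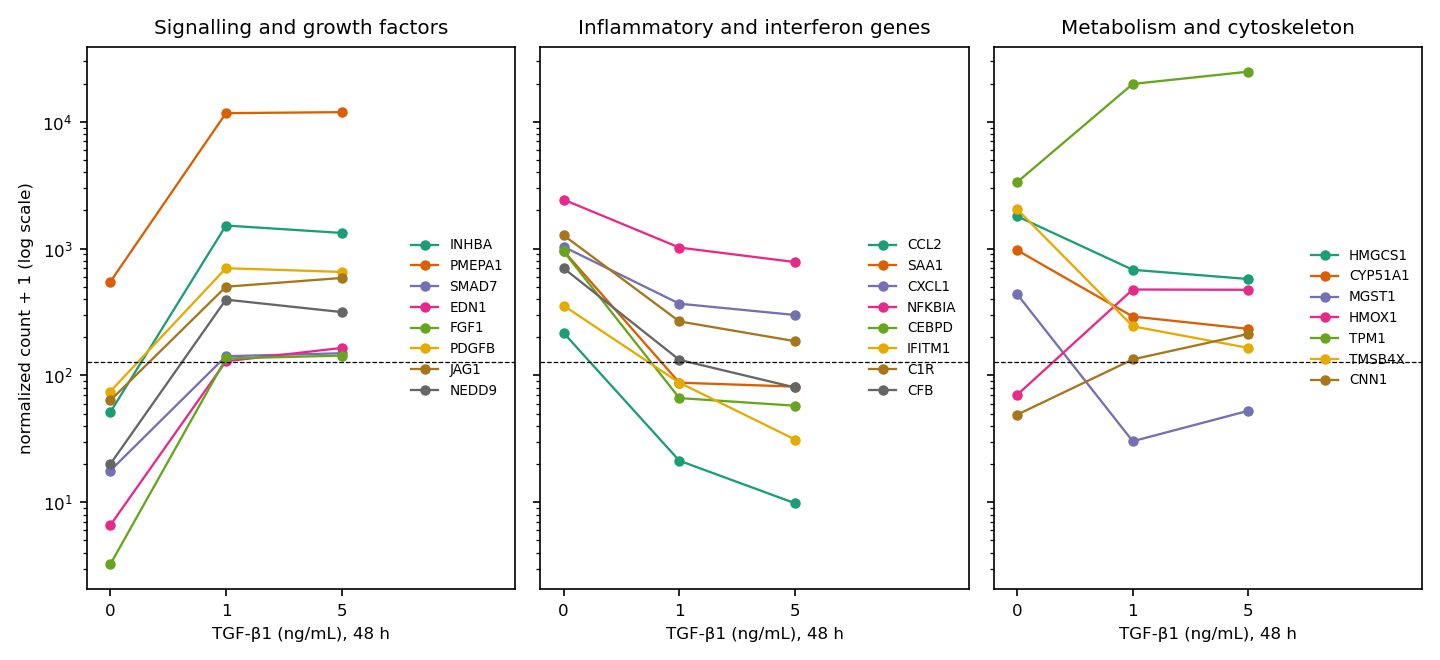
Normalized counts plus 1 (log axis) of genes of the main classes in the BEAS-2B libraries by TGF-β1 dose (0, 1 and 5 ng/mL), 1 library a dose, with the ND minimum dashed; lines join the libraries of a gene. INHBA, PMEPA1 and TPM1 lay above the control at both doses, and CCL2, SAA1 and TMSB4X below it at both.

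Inflammatory genes lay mostly below the control. Of 21 chemokine and acute inflammatory genes at the minimum, 16 had a log2 FC below 0, with a median of -0.85. By the call 10 fell, 1 rose and 10 were not called. The share that fell was 47.6%, beside 11.6% of all entries. CCL2, which attracts monocytes, had 193 counts in the control and 7 at 5 ng/mL, 24.4 times lower (11.6 to 61.5). SAA1, an acute phase apolipoprotein, went from 859 to 64 counts, 11.9 times lower (9.21 to 15.6). TNFAIP2, a gene induced by TNF, was 6.3 times lower (5.33 to 7.48). SOD2, the mitochondrial superoxide dismutase, fell 5.47 times (4.69 to 6.41), and CXCL1, a neutrophil chemokine, 3.46 times (3 to 4.01). NFKBIA, the NF-κB inhibitor that NF-κB itself induces, went from 2180 to 621 counts, 3.11 times lower (2.84 to 3.4). The subunit gene NFKB1 went from 344 to 127 counts. CXCL8, with 324 and 161 counts and a log2 FC of -0.83, was not called. IL32 was the exception and rose 2.94-fold (2.56 to 3.4).

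A form of the κB element that NF-κB binds, GGG and TTTCC with any 2 bases between them, was searched on both strands after these values had been seen. It was present in 3 of the 6 matched promoters of the 10 genes that fell. Among all matched genes it was in 3.1% of those called lower and in 1.55% of those called higher. It occurred in 1.92% of all 27305 promoters and in 2.07% of those of genes at the minimum. All 3 belong to genes of the NF-κB circuit itself or to its chemokine targets, in which the element could be expected whether or not they fell. Class members that were not called were not compared, and a link to the fall was not tested. Capitals mark the element (RefSeq, GRCh38.p14, strand of the gene):
CXCL1, chr4:73869304-73869333, plus strand: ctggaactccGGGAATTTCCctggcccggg
NFKBIA, chr14:35404811-35404840, minus strand: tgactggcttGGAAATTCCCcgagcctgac
NFKB1, chr4:102501300-102501329, plus strand: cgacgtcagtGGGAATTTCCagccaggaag
The elements began 79, 81 and 49 bases before the gene start. Of 3 matched epithelial junction and identity genes that fell, 1 had an element of this form and 1 an E-box. Both were in the promoter of ELF3, an epithelial ETS factor that fell to 11 counts, 88 and 120 bases before its start:
ELF3, chr1:202010489-202010518, plus strand: ctaaaggccaGGAAATCCCCtccatccaat
ELF3, chr1:202010455-202010484, plus strand: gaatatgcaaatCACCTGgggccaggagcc

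Of 10 genes of the IL-6 family and its SOCS inhibitors at the minimum 2 rose and 3 fell, 5 were not called, and the median was -0.32. CEBPD, a transcription factor of the acute phase, had 850 counts in the control and 45 at 5 ng/mL, 16.7 times lower (12.4 to 23.1). OSMR, the oncostatin M receptor, went from 190 to 23 counts, 7.32 times lower (4.73 to 11.8). The shared receptor IL6ST, with 337 and 155 counts, and STAT3, with 534 and 580, were not called. Complement and coagulation genes had the lowest median of the classes with at least 5 members at the minimum, -2, with 9 of 12 lower and 1 higher. CFB, factor B of the alternative pathway, fell from 627 to 63 counts, 8.81 times (6.79 to 11.6). C1R and C1S, proteases of the classical pathway, fell 6.87 times (5.78 to 8.21) and 3.03 times (2.18 to 4.27), and C3 fell 3.34 times (2.94 to 3.8). C1S overlaps LPCAT3 on the opposite strand, which went from 142 to 45 counts. F3, tissue factor, fell 5.8 times (4.26 to 8.07), and its inhibitor TFPI 4.81 times (3.87 to 6.04), whereas TFPI2 rose from 42 to 262 counts, 7.04-fold (5.07 to 10.0). SERPINB9, the granzyme B inhibitor, went from 137 to 9 counts.

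Of 20 interferon-stimulated genes at the minimum, 8 fell, 0 rose, and 19 had a log2 FC below 0 (median -0.72). IFITM1 and IFITM2, which restrict viral entry, had 317 and 1784 counts in the control and 24 and 387 at 5 ng/mL. The FCs were 11.7 times lower (7.72 to 18.5) for IFITM1 and 4.08 times lower (3.65 to 4.57) for IFITM2, a pair of near-identical neighbours between which reads may be split. BST2, or tetherin, fell 4.66 times (3.07 to 7.31). DTX3L and PARP9, partners that share a promoter region on opposite strands, fell 3.42 times (2.81 to 4.18) and 2.5 times (1.76 to 3.6). The interferon-γ-linked part of antigen presentation was lower too, with 8 of 18 class I genes lower and 1 higher (median -0.73). PSMB8 and PSMB9, subunits of the immunoproteasome, fell 5.33 times (3.93 to 7.37) and 3.18 times (2.59 to 3.94). These genes overlap each other on opposite strands, and PSMB9 also overlaps TAP1, which fell from 121 to 50 counts. With the strand of counting unknown, the falls of PSMB8, PSMB9 and TAP1 may not be separate. TAP2, a peptide transporter chain, fell 4.45 times (3.7 to 5.37), and the trimming peptidase ERAP1 3.79 times (2.96 to 4.92). HLA-B went from 4273 to 1745 counts, while B2M, the shared light chain, had 6206 and 3914 and was not called. These HLA, TAP and PSMB values are sums over the several entries a symbol has. PDIA3, a chaperone of class I assembly, rose 2.85-fold (2.6 to 3.11).

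**Figure D3:**
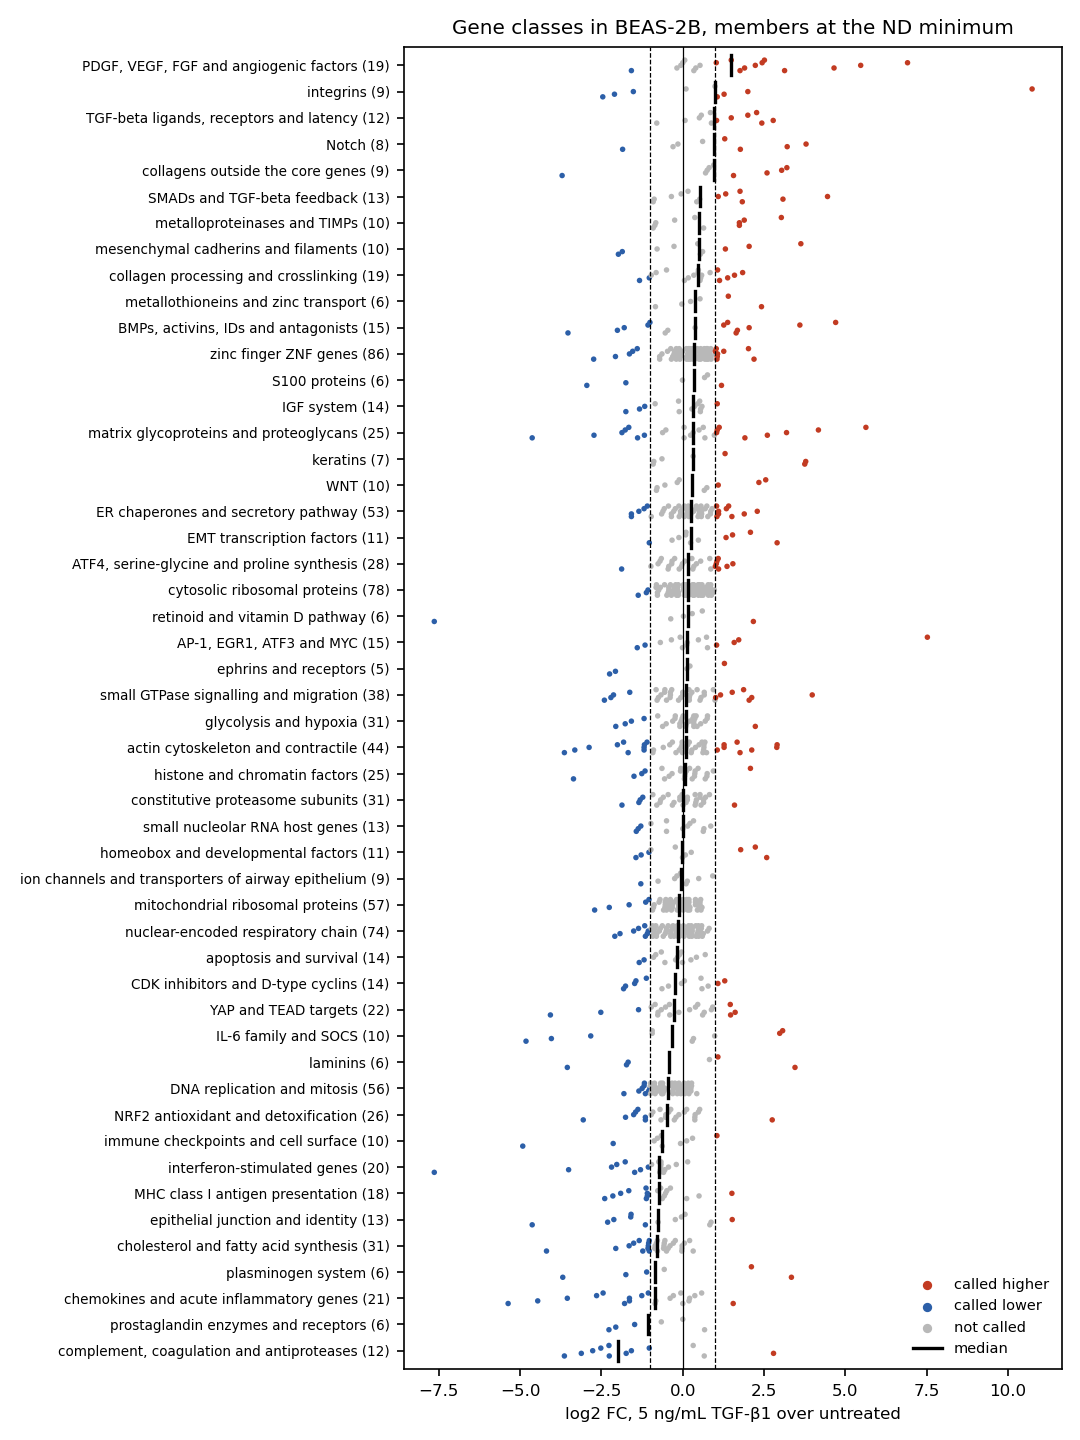
log2 FC at 5 ng/mL over untreated (horizontal axis) of each class member at the ND minimum, for classes with at least 5 such members except 1 that is not shown (number in brackets), ordered by their median (black bar); dashed lines mark an FC of 2. Growth factors, integrins, TGF-β ligands, Notch and further collagens stand at the top, and complement, prostaglandin, chemokine and plasminogen genes at the bottom. Points of genes with a count of 0 in a library depend on the pseudocount of 1.

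Genes of cholesterol and fatty acid synthesis were mostly below the control: of 31 at the minimum 11 fell, 0 rose and 28 lay below 0, with a median of -0.78. The share that fell was 35.5%, beside 11.6% of all genes, and among the scalings 7 to 11 members fell. CYP51A1, the lanosterol demethylase, had 871 counts in the control and 184 at 5 ng/mL and fell 4.19 times (3.57 to 4.94). HMGCS1, an early enzyme of the mevalonate pathway, went from 1614 to 456 counts, 3.13 times lower (2.82 to 3.48). The sterol sensor partner INSIG1 fell 2.53 times (2.18 to 2.95). SQLE, squalene epoxidase (1219 and 883 counts), and FASN, the fatty acid synthase (1944 and 2142), were not called. The sequence TCACNCCAC, a sterol regulatory element searched after the values were seen, was in 0 of the 8 matched promoters of genes that fell and in 1.15% of all promoters.

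Redox and lipid mediator genes were also more often lower than higher. Of 26 NRF2 and detoxification genes 7 fell and 1 rose (median -0.47). MGST1, a microsomal glutathione transferase, fell from 392 to 41 counts, 8.47 times (6.13 to 12), and NQO1, a quinone reductase, 3.41 times (2.71 to 4.33). CYP1B1, a cytochrome P450, fell 2.74 times (2.5 to 3). HMOX1, heme oxygenase 1, rose from 62 to 375 counts, 6.83-fold (5.21 to 9.09). In the prostaglandin class 3 of 6 fell and 0 rose, namely PLA2G16, a phospholipase, 4.85 times (3.97 to 5.97), PTGES, the prostaglandin E synthase, 4.21 times (3.11 to 5.79), and PTGR1, which inactivates prostaglandins, 2.8 times (2.39 to 3.3).

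Of 28 genes of the ATF4 response and of serine, glycine and proline synthesis, 7 rose and 1 fell, although the class median of 0.17 turned to -0.07 with total counts as the scale and the number higher fell to 2. ATF4 itself, the stress factor of this response, went from 1473 to 2783 counts. PYCR1, the mitochondrial proline synthase, rose 2.58-fold (2.31 to 2.88). ASNS, asparagine synthetase, rose 2.93-fold (2.15 to 4.05), and PHGDH, the first enzyme of serine synthesis, went from 140 to 257 counts. In the secretory pathway 9 of 53 rose and 5 fell (median 0.25), 39 were not called, and among the scalings 5 to 9 rose. SEC24D and SEC24A, cargo adaptors of COPII vesicles, rose 5.0-fold (3.4 to 7.53) and 3.77-fold (2.61 to 5.58), and their coat partner SEC31A 2.54-fold (2.3 to 2.81). HYOU1, an ER chaperone, went from 424 to 804 counts, while HSPA5 (5264 and 8430) was not called. MANF and RCN1, proteins of the ER lumen, fell 2.99 times (2.55 to 3.52) and 3.01 times (2.52 to 3.61).

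Matrix genes beyond the core genes of the study were divided. The 8 core genes, FN1, THBS1, COL1A1, MMP2, COL4A1, COL4A2, ITGA5 and COL5A1, all rose, between 2.82-fold for THBS1 and 15.6-fold for FN1. Of 9 further collagens at the minimum 4 rose and 1 fell. COL7A1, of anchoring fibrils, had 152 counts in the control and 1242 at 5 ng/mL, 9.23-fold (7.79 to 11), and COL27A1, a fibrillar collagen of cartilage, rose 8.28-fold (6.9 to 10.0). COL1A2, the partner chain of COL1A1, went from 20 to 111 counts. COL8A1, a short-chain collagen, fell from 930 to 62 counts, 13.3 times (10.3 to 17.5). Glycoproteins and proteoglycans had 8 higher and 7 lower of 25. VCAN, the large proteoglycan versican, rose from 43 to 698 counts, 18.3-fold (13.5 to 25.6), and SPOCK1, or testican, 9.12-fold (8.3 to 10.0). MATN2, the adaptor protein matrilin 2, fell from 161 to 5 counts, 28.5 times (12 to 89), and FBLN2, fibulin 2, 6.81 times (4.51 to 10.7). Among 6 laminin genes 2 rose and 3 fell, of which LAMA5 and LAMB2 fell 12.7 times (6.48 to 28.4) and 3.23 times (2.35 to 4.53).

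In the plasminogen system 2 of 6 members rose and 3 fell. SERPINE2, a serpin that inhibits plasminogen activators, had 1087 counts in the control and 4159 at 5 ng/mL and rose 4.32-fold (4.04 to 4.62). The activator PLAU, urokinase, fell from 316 to 21 counts, 13.3 times (8.57 to 21.8), and its receptor PLAUR from 829 to 339. S100A10, a plasminogen receptor subunit, fell 3.37 times (3.07 to 3.69). Of 10 metalloproteinases and TIMPs outside the core genes 4 rose and 0 fell. ADAMTS6 rose 8.23-fold (6.47 to 10.6), ADAM19 3.73-fold (3.13 to 4.45), and MMP14, the membrane-bound collagenase, 3.37-fold (2.6 to 4.41). Of the integrins 4 of 9 rose and 3 fell. Both chains of the hemidesmosome integrin were lower, ITGA6 5.65 times (3.72 to 8.91) and ITGB4 4.31 times (3.43 to 5.46).

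In the actin cytoskeleton 8 of 44 genes rose and 10 fell, and the median of 0.09 turned to -0.04 with total counts as the scale. The members that rose were stress fibre and smooth muscle proteins. TPM1, tropomyosin 1, had 2991 counts in the control and 19738 at 5 ng/mL, 7.45-fold (7.17 to 7.75). TAGLN rose 7.44-fold (6.42 to 8.65) and CNN1, calponin, 4.41-fold (3.14 to 6.32). ACTA2, smooth muscle actin, stood below the minimum at 63 and 62 counts. The members that fell included proteins that bind or cap actin. TMSB4X, which sequesters actin monomers, fell from 1835 to 130 counts, 12.5 times (10.5 to 15.1), and PFN1, profilin, 10.1 times (7.97 to 13). CAPZB, a capping protein, fell 4.03 times (3.74 to 4.34), and SRF, the transcription factor of actin genes, 3.2 times (2.87 to 3.57). ACTN4, a crosslinker, fell from 7000 to 840 counts, and CAPN12, which overlaps it on the opposite strand, from 5466 to 196. TMSB4X and PFN1 have near-identical pseudogene copies, among which the authors' counting could divide reads. Among migration and GTPase genes (7 higher, 4 lower of 38; the median of 0.10 turned negative with total counts) the scaffold NEDD9 rose from 17 to 250 counts, 16.6-fold (10.2 to 29), and RAC2 fell 5.37 times (4.12 to 7.09).

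Of 11 EMT factors at the minimum 4 rose and 1 fell. SOX4, a driver of EMT downstream of TGF-β, had 1003 counts in the control and 6644 at 5 ng/mL, 7.48-fold (7 to 8), and HMGA2 rose 4.28-fold (3.21 to 5.77). ZEB1 (134 and 166 counts) and ZEB2 (157 and 164) were not called. SNAI1 and SNAI2 stood below the minimum with 7 and 22 and with 10 and 48 counts. Only 13 of 50 epithelial junction and identity genes reached the minimum, of which 6 fell and 1 rose (median -0.76). ELF3, with 330 counts in the control, was 26.6 times lower (14.7 to 53.7). CLDN1, a tight junction claudin, fell 5.06 times (3.57 to 7.34). PKP1, a desmosomal plakophilin, was the member that rose, from 72 to 184 counts. CDH2, N-cadherin, rose 2.47-fold (2.3 to 2.67), and FAP, a surface protease of activated fibroblasts, from 15 to 173 counts. CDH4 and L1CAM fell 3.97 times (3.08 to 5.18) and 3.65 times (2.89 to 4.65). Of 7 keratins at the minimum 3 rose and 0 fell, although 2 fell under another scaling. KRT17 rose 13.7-fold (12.1 to 15.7), KRT81 13.5-fold (11.3 to 16.2) and KRT7 2.46-fold (2.29 to 2.65), and KRT8, KRT18 and KRT80, with a log2 FC of -0.91, -0.64 and -0.89, were not called.

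The immediate transcription factors (4 higher and 2 lower of 15) and YAP targets (3 and 3 of 22) gave no common direction. For the YAP targets these were 13.6% each way, beside 7.33% higher and 11.6% lower of all entries. JUNB rose 2.99-fold (2.6 to 3.45) and FOSL1 fell 2.66 times (1.91 to 3.75), both AP-1 subunits. CYR61 and CTGF, the standard target pair of YAP and TEAD, moved apart. CYR61 had 1629 counts in the control and 85 at 5 ng/mL, 17 times lower (13.6 to 21.4), and CTGF had 459 and 1128, 2.77-fold (2.49 to 3.1). ANKRD1, another target, rose 2.79-fold (1.97 to 4), and AXL fell 2.56 times (2.41 to 2.73).

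Of 56 replication and mitosis genes 8 fell, 0 rose and 43 lay below 0 (median -0.44). The share that fell was 14.3%, beside 11.6% of all genes, and among the scalings 6 to 14 fell. FEN1, the flap endonuclease, had 1762 counts in the control and 444 at 5 ng/mL, 3.51 times lower (3.17 to 3.91), and FOXM1, a factor of mitotic genes, had 678 and 262. MKI67 (2327 and 1864 counts) and TOP2A (10443 and 10554) were not called. Among CDK inhibitors, CDKN1A (p21) rose 2.45-fold (2.23 to 2.7), and CDKN2B, a TGF-β target, had 205 and 313 counts and was not called. CDKN2A fell 2.71 times (2.5 to 2.94) and CDKN2D 3.6 times (2.43 to 5.48). CCND1, cyclin D1, rose from 193 to 363 counts. RB1, the retinoblastoma protein that D-type cyclins and their kinases inactivate, fell from 146 to 46 counts. PLK2, a polo-like kinase, was 6.95 times lower (5.97 to 8.13), and BAX, a mediator of apoptosis, went from 249 to 510 counts.

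Of 78 cytosolic ribosomal protein genes 0 rose and 3 fell, of 57 mitochondrial ribosomal genes 0 and 5, and of 74 respiratory chain genes 0 and 8. The shares that fell, 3.85%, 8.77% and 10.8%, were below the 11.6% of all genes. Among the scalings 4 to 9 of the mitochondrial ribosomal genes and 7 to 13 of the respiratory chain genes fell. MRPL13 fell most, from 197 to 26 counts, 6.71 times (4.44 to 10.5), followed by MRPL34 at 4.87 times (3.46 to 7). ATP5C1, a subunit of ATP synthase, fell 4.28 times (3.39 to 5.47). PSMD2, a scaffold of the proteasome, rose from 1490 to 3980 counts, against 4 of 31 proteasome genes that fell (median 0.01, negative with total counts).

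Of 11 homeobox and developmental factors 3 rose and 3 fell, and of 25 histone and chromatin factors 1 rose and 4 fell. TBX3, a T-box repressor, rose from 147 to 785 counts, 6.03-fold (5.05 to 7.24). FOXD1, a forkhead factor, rose 3.45-fold (2.88 to 4.16). CBX7, a Polycomb subunit, fell from 332 to 28 counts, 10.5 times (7.13 to 16.1), and EED, of the other Polycomb complex, 2.85 times (2.2 to 3.74). VDR, the vitamin D receptor, rose 4.54-fold (3.44 to 6.06). The metallothionein MT1X rose 5.42-fold (4.17 to 7.13). Of 6 S100 genes 1 rose and 2 fell, with a median of 0.33. S100A6, a calcium-binding protein, fell from 3231 to 369 counts, 7.75 times (6.96 to 8.66), and S100A11 rose from 979 to 1980 counts. Of 5 ephrin and receptor genes 1 rose and 2 fell, with a median of 0.13. The ephrin receptor EPHB4 fell 4.78 times (3.94 to 5.83) and its class member EFNA5 4.23 times (3.36 to 5.37), while EPHB2 rose from 835 to 1792 counts. CD47, the signal that restrains phagocytes, fell 4.43 times (3.49 to 5.67).

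In collagen processing 5 of 19 rose and 2 fell, with FKBP10, a chaperone of procollagen, at 3.01-fold (2.47 to 3.7), PPIB, a prolyl isomerase that overlaps SNX22 on the opposite strand, at 3.61-fold (2.84 to 4.63), and P3H2, a prolyl hydroxylase, 2.53 times lower (2.02 to 3.17). In the IGF system 1 of 14 rose and 3 fell. IGFBP6, which binds IGF2, fell from 417 to 109 counts, 3.39 times (2.74 to 4.22), and IRS1, the receptor substrate, from 126 to 44. Of 86 ZNF zinc finger genes 8 rose (9.3%) and 5 fell (5.81%), beside 7.33% and 11.6% of all entries. ZNF503 and ZNF697 rose 4.65-fold (3.3 to 6.68) and 4.14-fold (2.85 to 6.17), and ZNF534 fell 6.81 times (4.7 to 10.2). Of 13 small nucleolar RNA host genes 3 fell and 0 rose, among them SNHG7, from 209 to 68 counts, and ZFAS1, from 678 to 231. Of 14 apoptosis genes 2 fell (14.3%, near the 11.6% of all entries) and 0 rose. Of 29 mucous and secretory genes of the airway 1 reached the minimum, and it was not called. Of 9 ion channel and transporter genes of airway epithelium 1 fell (11.1%, also near that share), the calcium pump ATP2B4, from 476 to 172 counts.

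The 54 classes held 1100 genes at the minimum, of which 327 were called, 144 higher and 183 lower. Among all entries at the minimum 19.0% were called. The lists were chosen with earlier results of these data known, so a difference between these shares has no meaning of its own. A further 941 called genes lay outside the classes and outside the core genes, 342 higher and 599 lower. Among the 25 largest rises outside the classes, AMIGO2, an adhesion protein, had 273 counts in the control and 3305 at 5 ng/mL, 13.7-fold (12.1 to 15.5). ALOX5AP, which presents arachidonic acid to lipoxygenase, rose from 5 to 132 counts, 29.8-fold (12.5 to 93.3). LMCD1, a LIM domain cofactor, rose 15.2-fold (11.2 to 21.1), and PCDH1, a protocadherin of airway epithelium, 17.3-fold (10.4 to 30.7). KCTD11 rose 9.07-fold (6.91 to 12.1) and KCNG1, a potassium channel subunit, 12.7-fold (8.26 to 20.3). AEBP1, a matrix-associated carboxypeptidase-like protein, rose from 15 to 105 counts. Among the 25 largest falls, CPA4, a carboxypeptidase, went from 1440 to 55 counts, 23.2 times lower (17.7 to 30.9). APOL6, an interferon-induced apolipoprotein, fell 19.9 times (10.3 to 44.1), and TNFRSF6B, the decoy receptor for FAS ligand, 10.7 times (7.83 to 14.9). ANXA3 fell 8.86 times (5.37 to 15.6), CYB5A, cytochrome b5, 9.89 times (7.44 to 13.4), and MGST3 7.64 times (5.87 to 10.1). NCSTN, a subunit of γ-secretase, was 22.9 times lower (9.54 to 71.5), and the COPA gene that overlaps it on the opposite strand had 580 and 587 counts.

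In CPM the composition of the library moved most through a few genes. FN1, fibronectin, had 11970 counts in the control and 165701 at 5 ng/mL, a gain of 37400 CPM, and COL1A1 gained 5378 CPM. TGFBI, TPM1 and IER3 gained 4608, 4087 and 2693 CPM, and PMEPA1 gained 2179. ACTG1, cytoplasmic γ-actin, went from 35459 to 14694 counts and lost most (a change of -4772 CPM), followed by TUBA1B, an α-tubulin (24770 and 9246 counts, -3581 CPM). The scaling moved the calls. With total counts in place of TMM factors, the median log2 FC of all genes moved from 0.03 to -0.10, and 373 genes were higher and 1013 lower, so that 26.9% of calls were higher against 38.7% here.

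**Figure D4:**
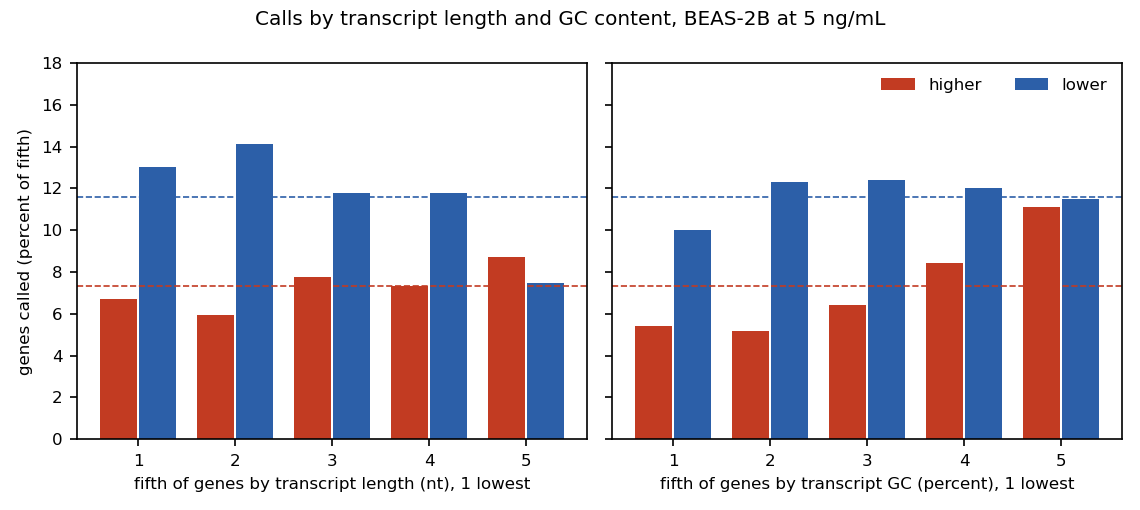
Percent of genes called higher (red) and lower (blue) at 5 ng/mL in each of 5 equal groups of genes at the ND minimum, ordered by transcript length in nucleotides (left) and GC content in percent (right); dashed lines mark the shares among all genes, 7.33% and 11.6%. The share lower was smallest among the longest transcripts (7.49%), and the share higher went from 5.4% in the group with the lowest GC content to 11.1% in that with the highest.

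Calls also varied with properties of the transcript, taken from GENCODE for 96.2% of genes at the minimum. From the shortest to the longest of 5 equal groups, 13%, 14.1%, 11.8%, 11.8% and 7.49% of genes were lower. The share of genes higher was 5.4% in the group with the lowest GC content and 11.1% in that with the highest. Genes called higher had a median GC content of 52.8%, those called lower 49.08%. Their part in the class results was not tested.

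The library at 1 ng/mL shares its control with the comparison at 5 ng/mL, so its values are only set beside them. INHBA, PMEPA1, JAG1 and FGF1 had 1351, 10397, 444 and 120 counts at 1 ng/mL. SAA1, CEBPD and CYR61 had 77, 58 and 163 counts. IFITM1 had 317, 77 and 24 counts at 0, 1 and 5 ng/mL, APOL6 202, 38 and 9, SRF 1514, 910 and 419, and NDUFA1, a respiratory subunit, 813, 632 and 252. In the A549 libraries PMEPA1 had 3089 counts untreated and 19781 at 5 ng/mL, and INHBA 8 and 631, so both genes were called higher there as well.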

How the data were processed

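RNA came from BEAS-2B and A549 cells at TGF-β1 doses of 0, 1 and 5 ng/mL (48 h), with 1 library a condition and groups assigned from the labels. The authors deposited whole-number read counts per gene symbol, without normalization, and the submitters' processing notes name Bowtie2, bedtools and hg19. The counting rules, such as strand and multiply mapped reads, are not given in the sources used here. Counts were scaled with TMM factors of edgeR 4.0.16 (R 4.3.3) over all 6 libraries, and a pseudocount of 1 was added for FC and ND values. Counts cover 4120624 to 7841350 reads a library, and 3 counts, the most that a count of 0 allows, are at most 0.728 CPM. Entries of 1 symbol were kept apart in the counts of all genes and summed for class members. Named genes were up to 5 of the largest rises and falls in each class with its central members, examples among the 25 largest rises and falls outside the classes, the largest gains and losses in CPM, and the cell type markers. Not every gene under this rule is described. NKILA, NCSTN, COPA, CAPN12 and the genes of small RNAs, GALNT enzymes and overlapping pairs were chosen after the values were seen. Members and lists were chosen with earlier results of these data known. The steps were tested on simulated data (Python 3.11.15, numpy 2.4.6, pandas 2.3.3, scipy 1.17.1, matplotlib 3.10.9). The alternatives were other scalings, including DESeq2 1.42.0, and other minimums, FC limits and pseudocounts. Positions come from RefSeq on GRCh38.p14 and overlaps from GENCODE on GRCh38, not from the hg19 intervals that were counted. The GO and network analyses and the miRNA experiments were not analysed here. Some genes are not reported here.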

Additional observations from a re-analysis of the deposited data

Results flagged for a closer look

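In 13 genes the calls at 5 ng/mL went in opposite directions in BEAS-2B and A549 cells, which is why they are listed, and 6 of them were higher and 7 lower in BEAS-2B cells. The difference between the cell lines was not tested.

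Among those lower in BEAS-2B cells, ITGB4, the hemidesmosome integrin chain, had a log2 FC of -2.10 (443 and 91 counts), against 318 and 950 counts in A549 cells. PTGES, the prostaglandin E synthase, had -2.06 (247 and 52 counts) against 1677 and 6865 in A549 cells. CDH4, R-cadherin, had -1.98 (332 and 74) against 88 and 1064. SDC4, the proteoglycan syndecan 4, had -1.77 (3274 and 847) against 228 and 805. The values of MVP, GXYLT2 and FSTL1 in BEAS-2B cells were -1.73, -1.32 and -1.01.

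Among those higher in BEAS-2B cells, SLC6A6, the taurine transporter, had a log2 FC of 2.92 (29 and 199 counts) against 140 and 51 in A549 cells. GDF15, a stress-induced cytokine, had 2.04 (137 and 501) against 1367 and 268. BDKRB2, the bradykinin B2 receptor, had 1.56 (82 and 215) against 351 and 169. HES1, the Notch target, had 1.29 (59 and 129) against 440 and 172. The values of EDARADD and IRF2BP2 were 1.94 and 1.03 in BEAS-2B cells.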

How the results depend on the processing

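With 494 genes higher and 783 lower at 5 ng/mL, 38.7% of calls were higher. The 95% Clopper-Pearson interval of this share, 36.0% to 41.4%, treats the called genes as independent draws. Genes of 1 pair of libraries are not independent, so the interval measures no spread between cultures. It served only as a mark for comparing settings on this share. The scaling moved this share to 26.9% with total counts and to 44.5% with upper quartile factors. The counts themselves moved with the criteria. Without an ND minimum 2686 genes were higher and 3063 lower (46.7% higher), and with a minimum of 6 there were 1183 lower. A minimum of 8 gave 324 and 473, the minimum in both libraries 246 and 329 (42.8% higher), and log2(CPM + 1) as the ND value 159 and 183 (46.5% higher). An FC of at least 1.5 gave 1296 and 1493 (46.5% higher) and an FC of at least 3 gave 190 and 307. DESeq2 size factors, TMM within BEAS-2B cells, pseudocounts of 5 and 0.1 and entries summed per symbol left all 3 values within 1.5 times or within the interval. Of 403 called class members and named genes the call was lost by 33 with total counts, 16 with upper quartile factors, 3 with DESeq2 size factors, 240 with log2(CPM + 1) as the ND value, 216 with the minimum in both libraries, 162 with an FC of at least 3, 120 with a minimum of 8 and 5 with a pseudocount of 5. With log2(CPM + 1) the Notch, retinoid and mucous classes had no member left and gave no median. The loss with the minimum in both libraries follows from the rule itself, since a gene near 0 in 1 library cannot pass it. The medians of the actin, glycolysis, ATF4, ephrin, homeobox, chromatin, GTPase, proteasome, small nucleolar RNA host and mucous classes changed sign among the scalings. No paired analysis was possible because the groups compared share fewer than 2 replicate numbers. A model over both cell lines with the line as a block was not run. At this depth the minimum stands for 113.9 counts in the control and 100.8 at 5 ng/mL, so changes in rarer transcripts such as SNAI1 and IL6 could not be called.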

Other observations

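Of 482 small RNA entries found by symbol after the values were seen, 6 reached the ND minimum, of which 4 were called higher and 0 lower. Of all entries at the minimum 7.33% were called higher and 11.6% lower. SNORD50A and SNORA79 reached the minimum only in the treated library, so they could not have been called lower. SCARNA9 and SNORA12, with a log2 FC of 0.92 and 0.97, were not called. RNU4ATAC, the U4atac RNA of the minor spliceosome, had 1211, 3063 and 7184 counts at doses of 0, 1 and 5 ng/mL, 6.7-fold at the highest (6.3 to 7.12). The A549 libraries at 0 and 5 ng/mL held 875 and 1538 counts of it. CLASP1, which overlaps it on the opposite strand, had 142 and 117 counts at 0 and 5 ng/mL. SNORD50A, a C/D box small nucleolar RNA, went from 37 to 169 counts, 5.16-fold (3.6 to 7.58), and SNORA79 from 29 to 128. SCARNA22, a Cajal body RNA, had 322, 1167 and 1139 counts at 0, 1 and 5 ng/mL. These RNAs lack the long poly(A) tail on which the kit primes, and why they were counted was not tested.

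The enzymes of GALNT genes start O-linked glycans with N-acetylgalactosamine, and 3 of these genes were among the 7.33% of all entries called higher. They were picked after the values were seen, and the members of the family at the minimum were not counted. GALNT16 reached the minimum only in the treated library. GALNT10 had 385 counts in the control and 1282 at 5 ng/mL, 3.76-fold (3.35 to 4.22). GALNT1 went from 137 to 386 counts, 3.18-fold (2.61 to 3.9), and GALNT16 from 31 to 128, 4.66-fold (3.13 to 7.14). GALNT2, with 234 and 339 counts, was not called. SAP30L-AS1, on the opposite strand at GALNT10, went from 47 to 157 counts.

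Some large changes sat on entries that share sequence with a neighbour or a near-identical gene that moved differently. UQCRHL, a copy of the respiratory subunit UQCRH, fell from 169 to 11 counts, and UQCRH had 1045 and 1071. FLJ44635, a relative of TPT1, fell from 400 to 35 counts, and TPT1 had 23641 and 16059, which was not called. The readthrough entry SYS1-DBNDD2 fell from 660 to 33 counts, and SYS1 had 369 and 298. PALM2 rose from 84 to 506 counts and the readthrough entry PALM2-AKAP2 from 13 to 105, while AKAP2 had 2604 and 2352. EEF1A1, an elongation factor with many pseudogene copies, fell from 5004 to 1020 counts. How reads were assigned among such entries is not given in the sources used here.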
